A study of Mus musculus with 7 samples.

Results

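The insulin-like growth factor binding proteins (IGFBPs), encoded by Igfbp1 to Igfbp7, were examined in the livers of male WT and TET1 KO mice on a high-fat diet (HFD). The 7 genes were picked by name from the 51426 genes in the count tables, 24623 of which had at least 1 count, and all 7 passed the filter on low counts, so that none of the family is missing from the 14754 genes tested. WT mice were C57BL/6J by the labels, and TET1 KO mice (genotype label TET-1-TKO), also given as C57BL/6J, lacked TET1 in the whole body, so that a difference in the liver can start in any tissue. The study bought a heterozygous line, B6;129S4-Tet1tm1.1Jae/J, and also made whole-body knockouts from floxed mice with a β-actin Cre. The labels do not say which of these lines was sequenced. In its figure legends the study names the sequenced mice TET1wt/wt and TET1−/−, and writes the Cre knockouts differently, as ActbCre/- TET1L/L. Both genotypes had been on the HFD for 16 weeks from 8 weeks of age, and chow-fed livers were not analysed here, so that every value below is a level under the HFD. RNA of 3 WT and 4 TET1 KO livers, 1 mouse each, was sequenced, and the authors deposited the number of reads on each gene for every mouse.

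IGFBPs are secreted proteins that hold IGF1 and IGF2 in the blood and in tissues, lengthen the time the hormones stay in the circulation and keep them from, or hand them over to, the IGF1 receptor. Proteases such as the pappalysins cut the binding proteins and set the hormones free. The liver makes most of the circulating IGF1 and several of its binding proteins, and the amounts of the latter follow insulin, growth hormone, leptin and feeding. IGFBP1 is made by hepatocytes under the control of FOXO1 and falls when insulin rises, IGFBP2 is a main serum carrier and is induced by leptin, and IGFBP3 carries most serum IGF1 in a complex with the acid-labile subunit. IGFBP4 inhibits IGF action, IGFBP5 binds the extracellular matrix, IGFBP6 prefers IGF2, and IGFBP7 binds IGFs only weakly. TET1 oxidizes 5-methylcytosine, which sits mostly in CG dinucleotides, on the way to DNA demethylation.

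4 of the 7 genes form 2 close pairs in the genome (GRCm38 coordinates, RefSeq). Igfbp1 (ENSMUSG00000020429) runs from 7197787 to 7202546 on the plus strand of chromosome 11, and Igfbp3 (ENSMUSG00000020427) from 7206086 to 7215498 on the minus strand, so that their 3′ ends face each other across 3539 bases. Igfbp2 (ENSMUSG00000039323) runs from 72824480 to 72852474 on the plus strand of chromosome 1, and Igfbp5 (ENSMUSG00000026185) from 72858065 to 72874865 on the minus strand, again end to end, 5590 bases apart. Igfbp4 (ENSMUSG00000017493) lies on the same chromosome as the first pair, from 99040005 to 99052655. Igfbp6 (ENSMUSG00000023046) lies on chromosome 15 from 102144186 to 102149512, and Igfbp7 (ENSMUSG00000036256) on chromosome 5 from 77349240 to 77408045, where its 3′ end overlaps that of Polr2b by 89 bases. The library kit kept the strand, but the strand setting of the counting is not given in the sources used here, so that reads in this overlap cannot be assigned with certainty.

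The start regions of 3 members are printed as examples. CG was found in the start regions of all 7 members, so that it does not set these 3 apart. Each window holds 250 bases before a RefSeq transcription start and 50 bases after it, 5′ to 3′ on the strand of the gene, in build GRCm38.p6. In Igfbp1 (chr11:7197537-7197836, plus strand) capitals mark the letters CAAAACA or CAAAATA on either strand, the core of the insulin response element bound by FOXO1, and in Igfbp2 (chr1:72824230-72824529, plus strand) and Igfbp3 (chr11:7213874-7214173, minus strand) capitals mark every CG.
Igfbp1: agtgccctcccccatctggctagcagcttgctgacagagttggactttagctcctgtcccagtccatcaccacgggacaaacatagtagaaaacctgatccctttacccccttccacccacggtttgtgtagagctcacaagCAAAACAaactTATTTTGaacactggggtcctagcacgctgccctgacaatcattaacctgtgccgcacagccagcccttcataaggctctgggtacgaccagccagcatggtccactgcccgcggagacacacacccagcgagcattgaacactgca
Igfbp2: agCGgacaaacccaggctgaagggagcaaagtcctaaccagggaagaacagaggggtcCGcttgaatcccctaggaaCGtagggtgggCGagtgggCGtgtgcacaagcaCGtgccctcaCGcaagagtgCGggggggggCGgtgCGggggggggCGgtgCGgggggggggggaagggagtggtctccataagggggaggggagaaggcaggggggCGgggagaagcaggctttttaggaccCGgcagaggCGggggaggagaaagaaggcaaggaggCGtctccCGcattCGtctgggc
Igfbp3: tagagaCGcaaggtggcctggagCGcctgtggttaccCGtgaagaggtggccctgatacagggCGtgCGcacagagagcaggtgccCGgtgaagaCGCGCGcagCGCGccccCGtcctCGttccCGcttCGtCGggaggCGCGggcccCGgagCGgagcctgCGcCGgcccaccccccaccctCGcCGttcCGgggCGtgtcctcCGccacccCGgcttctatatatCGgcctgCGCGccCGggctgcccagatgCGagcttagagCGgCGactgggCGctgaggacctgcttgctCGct
The Igfbp1 window held 2 such elements, and no window of the other 6 genes held any. Of 32851 RefSeq windows of this length, 10.2% held at least 1. The Igfbp2 window held 18 CG, a number that 29.7% of all windows reached, and a second Igfbp2 start (chr1:72825137-72825436) held 14. The Igfbp3 window held 37 CG, which 5.58% of all windows reached, Igfbp7 held 33 and Igfbp4 held 27, against 10 in Igfbp5 and 8 each in Igfbp1 and Igfbp6. The median over all windows was 7. On either strand, the letters TATAAA were found in the Igfbp4 and Igfbp6 windows and in 13.6% of all windows, and the STAT motif TTCNNNGAA in none of the 7 genes and in 8.30% of all windows. The count tables hold no methylation values, so the letters describe the sequence only.

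Library sizes lay between 15005277 and 22746138 counts, and levels are given as TMM-normalized CPM, the counts scaled to library size. Replicates are single livers, so that fewer cells of a type and less RNA per cell cannot be told apart in any value below. Tet1 itself had 1 to 4 counts in every library, so that the targeted mRNA does not check the labels. Hepatocyte markers summed to between 61128 and 81988 CPM, as a liver sample would have it. Of 45 tested markers of 7 liver cell types, 1 was called, the stellate cell and pericyte gene Rgs5, which fell by 0.67 on the log2 scale (edgeR adjusted p = 0.0460), beside 2.02% of all tested genes called. Beside the members, summed cholangiocyte markers lay at 29.7 to 37.8 CPM in WT and at 46.1 to 68.0 CPM in TET1 KO livers. All 5 tested cholangiocyte markers had a positive log2 fold change, with a median of 1.22, and 4 had an unadjusted p under 0.05 and 3 did not overlap between the genotypes, as 22.5% of all tested genes did not, while 0 were called by edgeR after adjustment. In TET1 KO replicate 4 Krt19 stood at 6.68 CPM and Epcam at 4.87 CPM, and Krt7 was also highest there. In the other TET1 KO livers Krt19 stood at 1.06 to 1.69 CPM and Epcam at 0.689 to 0.986 CPM. WT livers had 0.871 to 1.10 CPM of Krt19 and 0.276 to 0.539 CPM of Epcam. Spp1 was the largest part of every sum, at 19.8 to 29.1 CPM in WT and 30.7 to 43.7 CPM in TET1 KO livers. Summed endothelial markers lay at 174 to 178 CPM in WT and at 149.7 to 170.3 CPM in TET1 KO livers. Of the 8 endothelial markers 0 were called. No marker of these 2 lists was at 0 in every library. The part of these shifts in the values of the members was not tested.

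Of the 7 members, Igfbp2 alone passed the test. It rose to several times its WT level, Igfbp3 had a lower mean in TET1 KO livers without passing, and the other 5 did not pass in either direction. The plot of the members by liver shows Igfbp2 as the only panel with a wide gap between the genotypes. Over all tested genes 298 (2.02%) were called at an edgeR adjusted p under 0.05, 129 higher (0.874%) and 169 lower (1.15%), which is the background for 1 member of 7 called higher and 0 called lower. The median log2 fold change of the members was 0.26, beside 0.01 over all tested genes. The authors singled out Igfbp2 on these same samples, so that its call here is not independent evidence.

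**Figure D1:**
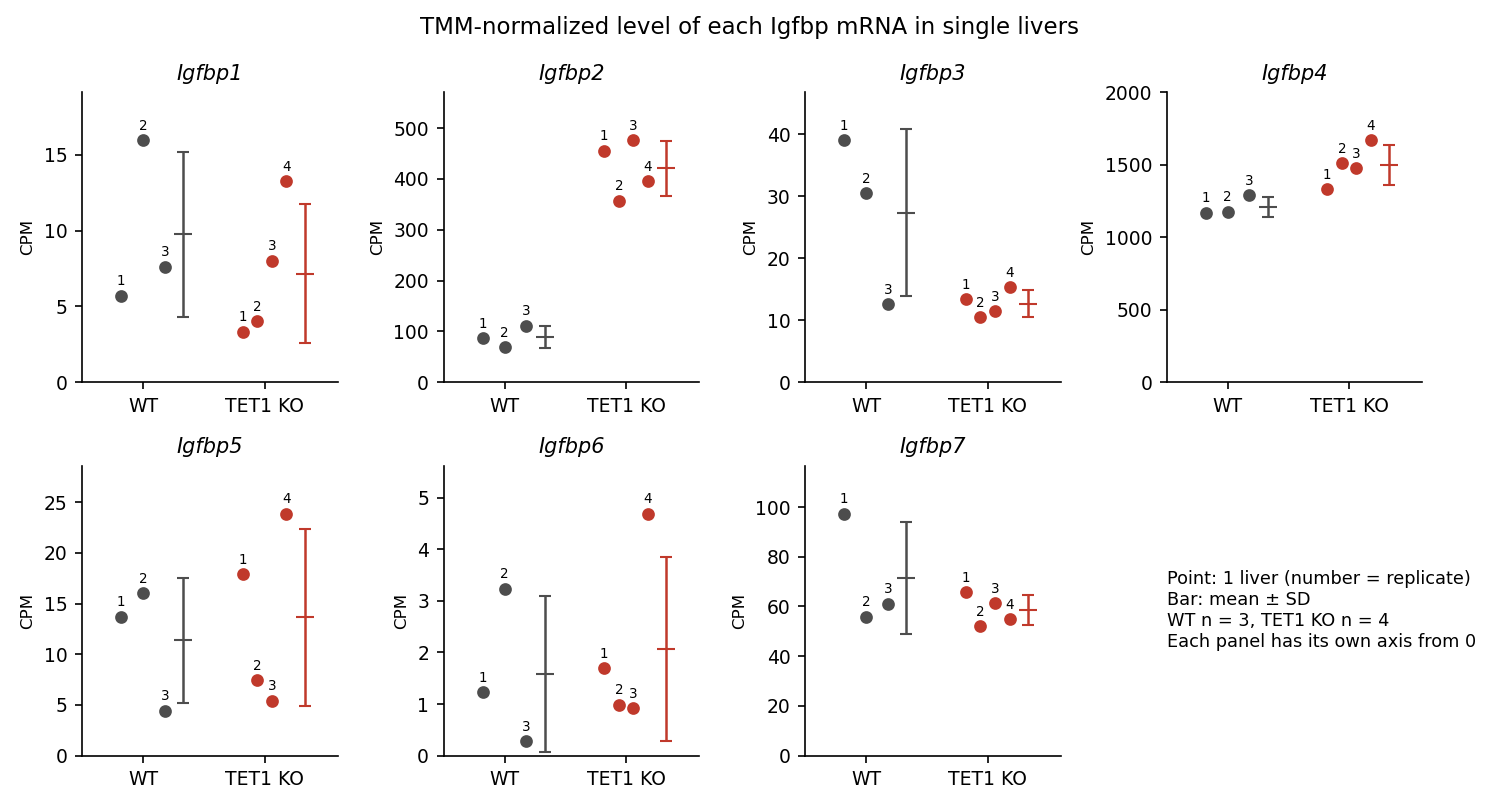
Level of each Igfbp mRNA in TMM-normalized CPM (vertical axes, each from 0) in 3 WT (grey) and 4 TET1 KO (red) livers, with replicate numbers beside the points and the mean ± SD beside each group. Igfbp2 lies between 68.5 and 111 CPM in WT and between 358 and 476 CPM in TET1 KO livers, while the groups overlap for Igfbp1, Igfbp3, Igfbp5, Igfbp6 and Igfbp7.

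Igfbp2, the leptin-responsive serum carrier, stood at 86.2, 68.5 and 111 CPM in WT replicates 1 to 3. In TET1 KO replicates 1 to 4 it stood at 455, 358, 476 and 396 CPM. Every TET1 KO liver was thus far above every WT liver. The mean of 88.7 ± 21.6 CPM (SD, n = 3) in WT rose to 421 ± 54.4 CPM (SD, n = 4), a 4.75-fold change with a 95% interval of 3.52 to 6.41 (log2 fold change 2.25, SE, the standard error, 0.20, edgeR adjusted p = 0.00116). Igfbp2 was second of all 14754 genes by p, and 0.610% of them had a log2 fold change at least as large in size. Its values rest on 1652 to 9306 counts per liver, and its spread within a genotype was ordinary, with 48.9% of genes at least as variable. The call held under all 14 other settings, with log2 fold changes of 2.08 to 2.42 and adjusted p-values of at most 0.0116. The summed cholangiocyte markers given above also lay higher in TET1 KO livers, and their part in the Igfbp2 values was not tested.

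The genes whose pattern over the 7 livers was closest to that of Igfbp2, by the root mean square difference of centred log2 CPM, were Gpr162 (0.27), Susd4 (0.31) and Cdh1 (0.33). All 3 were themselves called higher, as genes picked for this likeness would be. Gpr162, an orphan receptor gene, stood at 0.295 to 0.662 CPM in WT and 1.89 to 2.82 CPM in TET1 KO livers. Susd4, a complement inhibitor gene, stood at 9.99 to 17.3 and 37.1 to 50.4 CPM, and Cdh1, the gene of E-cadherin, at 2.71 to 6.24 and 12.9 to 20.7 CPM. In the order Gpr162, Susd4 and Cdh1, their log2 fold changes were 2.30, 1.75 and 2.01, at edgeR adjusted p = 0.0132, 0.00346 and 0.00958.

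Igfbp5, the extracellular matrix-binding member that ends 5590 bases from Igfbp2, did not pass. It stood at 13.7, 16.0 and 4.41 CPM in WT and at 17.9, 7.47, 5.42 and 23.8 CPM in TET1 KO livers, and the groups overlapped. Its log2 fold change was 0.26 (SE 0.51, 95% interval -0.86 to 1.39, edgeR adjusted p = 0.764). On the other side of Igfbp2 the next tested gene was Rpl37a, a ribosomal protein gene 110666 bases away, with a log2 fold change of 0.95 (SE 0.22, adjusted p = 0.0513). Beyond Igfbp5, 1035 kb away, came Tns1 at 0.39 (adjusted p = 0.233). Among the tested neighbours of this pair Igfbp2 was thus the one gene called, although the difference between Igfbp2 and Igfbp5 was not itself tested.

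Igfbp3, the partner of the acid-labile subunit in serum, which in rodent liver is made largely by non-parenchymal cells, stood at 39.0, 30.4 and 12.6 CPM in WT livers. In TET1 KO livers it stood at 13.4, 10.5, 11.5 and 15.3 CPM. WT replicates 1 and 2 were well above every TET1 KO liver, but WT replicate 3 lay within the TET1 KO range, so that the groups overlapped. The means were 27.3 ± 13.5 CPM (SD, n = 3) and 12.7 ± 2.14 CPM (SD, n = 4), with a log2 fold change of -1.11 (SE 0.30, 95% interval -1.78 to -0.44, edgeR adjusted p = 0.0747). Without WT replicate 3 the log2 fold change was -1.47 and passed (adjusted p = 0.00528), and it also passed in DESeq2 (-1.14, adjusted p = 0.00908), which called 9.14% of the genes it tested, and with no filter on low counts (-1.14, adjusted p = 0.0433). Over all settings the adjusted p ran from 0.00528 to 0.289, so that the call depends on which livers and which test are used.

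The genes closest in pattern to Igfbp3 were picked for that likeness over these 7 livers, so that a low WT replicate 3 is part of their choice. Itga8, an integrin gene of stellate cells, differed from the Igfbp3 pattern by 0.16 (root mean square, log2) and stood at 6.00, 5.80 and 2.26 CPM in WT and 1.55 to 2.51 CPM in TET1 KO livers. Olig1 (0.22), the gene of a basic helix-loop-helix factor, and Fbln5 (0.22), the gene of an elastic fibre protein, followed. None of these 3 genes passed the edgeR test: Itga8 had a log2 fold change of -1.13 at an adjusted p of 0.0801, Olig1 -0.77 at 0.158 and Fbln5 -0.76 at 0.130. Of the endothelial markers, Lyve1, a hyaluronan receptor gene of sinusoidal and lymphatic endothelium, had 15.3, 16.3 and 7.62 CPM in WT and 8.89, 4.44, 7.01 and 4.45 CPM in TET1 KO livers. Of the 8 endothelial markers 7 had a negative log2 fold change, with a median of -0.17: after Lyve1 (-1.08) came Pecam1 (-0.42), Oit3 (-0.33, groups not overlapping), Cdh5 (-0.26), Stab2 (-0.08), Clec4g (-0.02) and Bmp2 (-0.02), while Kdr stood at 0.09. Summed stellate markers were 341, 293 and 237 CPM in WT and 224 to 315 CPM in TET1 KO livers. The part of these cell types in the Igfbp3 values was not tested.

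Igfbp1, the insulin-repressed hepatocyte member that lies next to Igfbp3, did not pass. Its levels were 5.71, 16.0 and 7.62 CPM in WT and 3.32, 4.02, 8.03 and 13.3 CPM in TET1 KO livers. WT replicate 2 and TET1 KO replicate 4 were the high livers of their groups. The log2 fold change was -0.44 (SE 0.46, 95% interval -1.45 to 0.58, edgeR adjusted p = 0.561), and without WT replicate 2 it changed sign to 0.12. Only 3.0% of tested genes varied as much within a genotype, with a pooled SD of 0.85 on the log2 scale. By the study's methods serum was drawn without fasting at the end of the diet, and the time from the last meal to the taking of each liver is not given in the sources used here.

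Other genes of the insulin and FOXO1 list were set beside Igfbp1. G6pc, the gene of the glucose-6-phosphatase catalytic subunit, stood at 82.7, 245 and 193 CPM in WT and at 259, 72.6, 173 and 245 CPM in TET1 KO livers. Pck1, the gene of the rate-limiting enzyme of gluconeogenesis, stood at 1057, 1763 and 1209 CPM in WT and at 1718, 855, 1303 and 1923 CPM in TET1 KO livers. WT replicate 2 and TET1 KO replicate 4 were high in Pck1 as in Igfbp1, while TET1 KO replicate 1 was high in G6pc and Pck1 but had the lowest Igfbp1. The log2 fold change was 0.11 for G6pc (edgeR adjusted p = 0.888) and 0.11 for Pck1, which did not pass either. On the same list of 9 genes, Irs2, itself a FOXO1 target, was called higher (1.00) and Ppargc1a, the gene of a coactivator of gluconeogenesis, had a log2 fold change of 0.27 without overlap or a call. Over the list 7 of 9 log2 fold changes were positive, with a median of 0.12. The genes closest in pattern to Igfbp1 were Pnp2 (0.21), which encodes a purine nucleoside phosphorylase, Gm5917 (0.27) and AK157302 (0.27), none of which passed. Pnp2 stood at 0.492, 1.24 and 0.717 CPM in WT livers and at 0.313, 0.352, 0.818 and 0.974 CPM in TET1 KO livers, a likeness for which it was picked.

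Igfbp4, the inhibitory member cut by pappalysin, was the most abundant of the family. It stood at 1168, 1176 and 1290.5 CPM in WT and at 1331, 1510.5, 1477 and 1669 CPM in TET1 KO livers. The groups did not overlap, but the gap between WT replicate 3 and TET1 KO replicate 1 was small. The means were 1212 ± 68.5 CPM (SD, n = 3) and 1497 ± 139 CPM (SD, n = 4), with a log2 fold change of 0.31 (SE 0.18, 95% interval -0.08 to 0.69, edgeR adjusted p = 0.283). Groups that did not overlap were seen for 2 members of 7, Igfbp2 and Igfbp4, and for 22.5% of all tested genes. Igfbp4 was also the steadiest member, since 93.1% of tested genes varied at least as much within a genotype. Its closest genes in pattern were Sys1 (0.04), a Golgi trafficking gene, Ppp4c (0.07), which encodes a protein phosphatase subunit, and Mettl23 (0.07), a methyltransferase gene, none of which passed.

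Igfbp7, the low-affinity member known from vascular and stellate cells, stood at 97.3, 55.8 and 61.1 CPM in WT and at 65.8, 52.1, 61.3 and 54.9 CPM in TET1 KO livers. WT replicate 1 was above every other liver, and the remaining 6 livers overlapped. The log2 fold change was -0.29 (SE 0.19, 95% interval -0.70 to 0.13, edgeR adjusted p = 0.346), and without WT replicate 1 it was -0.01. Polr2b, the RNA polymerase subunit gene whose 3′ end overlaps that of Igfbp7, had a log2 fold change of -0.73 (adjusted p = 0.106). Igfbp7 was closest in pattern to Cebpe (0.09), Tyw3 (0.11) and Gpr137b (0.12), and Cebpe, the gene of a myeloid transcription factor, stood at 16.5, 11.6 and 11.9 CPM in WT and at 10.1 to 12.3 CPM in TET1 KO livers.

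Igfbp6, the IGF2-preferring member, was the least abundant, with 5 to 101 counts per liver. It stood at 1.23, 3.23 and 0.276 CPM in WT and at 1.69, 0.986, 0.921 and 4.69 CPM in TET1 KO livers, a 17-fold range over the 7 livers. WT replicate 3 was the lowest and TET1 KO replicate 4 the highest, and only 0.481% of tested genes varied as much within a genotype. The log2 fold change was 0.38 (SE 0.69, 95% interval -1.13 to 1.90, edgeR adjusted p = 0.745), an interval that holds more than a doubling as well as more than a halving.

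Igfbp5 and Igfbp6 went up and down together from liver to liver, and in both genotypes. Ranked within WT, both were highest in replicate 2 and lowest in replicate 3, and within TET1 KO both were highest in replicate 4, followed by replicates 1, 2 and 3. For each of them the tested gene closest in pattern was the same, Upk1b, a uroplakin gene of the mesothelial marker list, which differed from the Igfbp5 pattern by 0.31 and from the Igfbp6 pattern by 0.44 (root mean square, log2). Upk1b stood at 0.246, 0.788 and 0.0552 CPM in WT and at 0.564, 0.141, 0.102 and 0.696 CPM in TET1 KO livers. These levels rest on only 1 to 19 counts per liver. The 6 mesothelial markers together summed to 5.76, 8.21 and 0.717 CPM in WT and to 4.13, 1.27, 2.05 and 6.73 CPM in TET1 KO livers, so that WT replicate 3 was again lowest and TET1 KO replicate 4 the highest of its group. Among TET1 KO livers the marker sum was lowest in replicate 2, while Igfbp5 and Igfbp6 were lowest in replicate 3. Mesothelial cells cover the liver capsule, and 0 of the 4 tested markers were called between the genotypes. Rgs16 (0.36) and Gm10642 (0.37) came next for Igfbp5, and Pkhd1l1 (0.49) and Cyp2s1 (0.50) for Igfbp6, none of which passed. The part of mesothelial RNA in the levels of Igfbp5 and Igfbp6 was not tested.

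**Figure D2:**
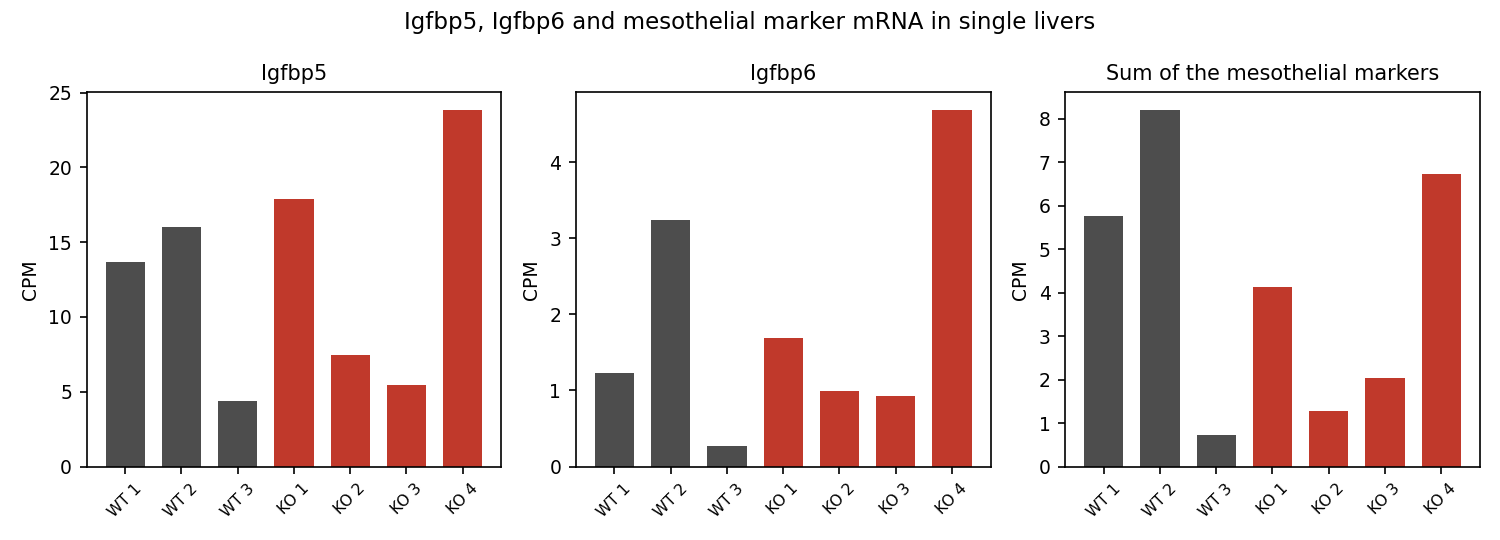
Igfbp5, Igfbp6 and the sum of the 6 mesothelial markers in TMM-normalized CPM (vertical axes from 0), with 1 bar per liver, WT in grey and TET1 KO in red. In all 3 panels WT replicate 3 is the lowest bar of the 7, and TET1 KO replicate 4 is the highest TET1 KO bar.

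The differences between the genotypes are set side by side for the 7 members in the plot of log2 fold changes. The 95% interval of Igfbp2 lay far above 0, that of Igfbp3 lay below 0 without an adjusted call, and the others crossed 0. Under the other settings Igfbp2 and Igfbp3 kept their signs in 14 of 14, as did Igfbp4 and Igfbp7, while Igfbp1, Igfbp5 and Igfbp6 changed sign in at least 1. An interval that crosses 0 does not show that a member was equal in the genotypes.

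**Figure D3:**
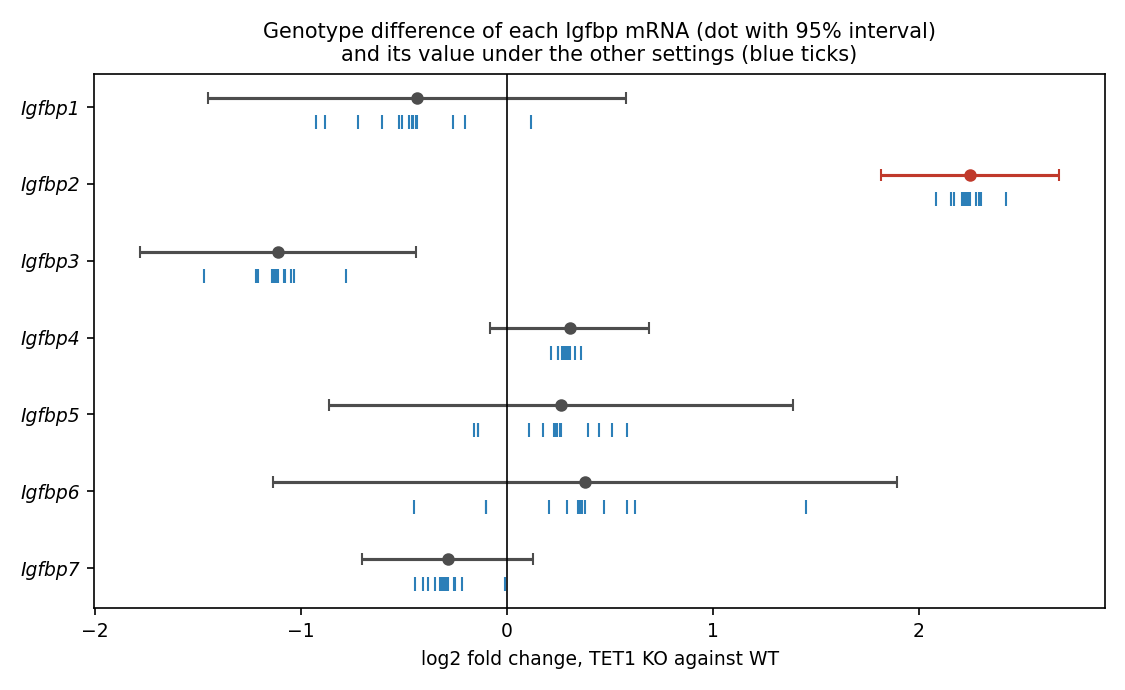
log2 fold change of TET1 KO against WT (horizontal axis) for each member, as a dot with its 95% interval from edgeR (red where the adjusted p was under 0.05), and below it the value under each other setting (blue ticks). Igfbp2 spans 2.08 to 2.42 over its ticks and Igfbp3 spans -1.47 to -0.78, while the ticks of Igfbp1, Igfbp5 and Igfbp6 lie on both sides of 0.

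Levels of different members were compared per length, as CPM per kb of exon. The lengths came from an annotation of an older build than that of the counts, and the release used for the counting is not given in the sources used here, so that values per kb are approximate. In WT livers Igfbp4 led with 513 ± 29.0 CPM per kb (SD, n = 3), followed by Igfbp7 with 58.9 ± 18.6 and Igfbp2 with 48.0 ± 11.7. Igfbp3 (8.73 ± 4.30), Igfbp1 (6.40 ± 3.57), Igfbp5 (1.89 ± 1.02) and Igfbp6 (1.42 ± 1.36) came after. Igfbp7 and Igfbp2 did not differ beyond their spread there, nor did Igfbp3 and Igfbp1 or Igfbp5 and Igfbp6, since the livers of each of these neighbours overlapped. In TET1 KO livers Igfbp4 again led with 634 ± 58.7 CPM per kb (SD, n = 4), and Igfbp2 with 228 ± 29.4 was now above Igfbp7 with 48.3 ± 5.10 in every liver. Below them Igfbp1 (4.69 ± 3.0), Igfbp3 (4.05 ± 0.683), Igfbp5 (2.27 ± 1.45) and Igfbp6 (1.86 ± 1.60) overlapped from each to the next. Within each single TET1 KO liver, however, Igfbp3 stood above Igfbp5. In replicates 1 to 4 Igfbp3 had 4.28, 3.35, 3.66 and 4.89 CPM per kb, beside 2.98, 1.24, 0.903 and 3.97 for Igfbp5. Over all 7 livers 0.787% of the 13469 tested genes with a known length stood at or above Igfbp4, 2.89% at or above Igfbp2 and 7.28% at or above Igfbp7, but 67.6% at or above Igfbp6.

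**Figure D4:**
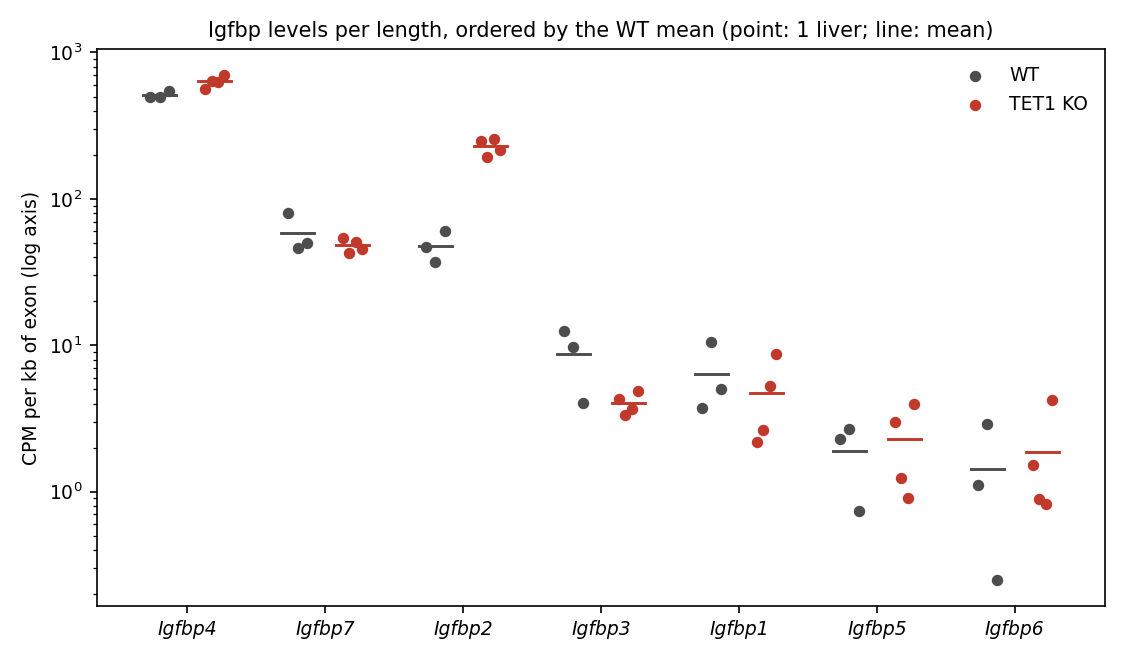
Level of each member in CPM per kb of exon (log vertical axis), ordered by the WT mean, with 1 point per liver and a line at the mean of 3 WT (grey) and 4 TET1 KO (red) livers. Igfbp4 leads in both genotypes at 513 and 634 CPM per kb, and Igfbp2 goes from 48.0 in WT to 228 in TET1 KO livers, from the level of Igfbp7 to above it.

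The make-up of the family followed from these levels. Igfbp4 held 82.8, 86.1 and 86.7% of the family's counts in WT livers and 70.5, 77.7, 72.4 and 76.7% in TET1 KO livers. Igfbp2 held 6.11, 5.01 and 7.49% in WT livers and 24.1, 18.4, 23.3 and 18.2% in TET1 KO livers. The share of Igfbp2 was thus 14.8 percentage points higher in TET1 KO livers, between 13.8 and 15.7 with any liver left out, and that of Igfbp4 differed by -10.9 points. Shares of a fixed sum move against each other, so that these are not separate results. Igfbp7 went from 6.89, 4.09 and 4.11% to 3.48, 2.68, 3.01 and 2.52%, although its own level did not pass the test. Igfbp3 went from 2.76, 2.23 and 0.846% in WT livers to between 0.540 and 0.709% in TET1 KO livers. Igfbp1 (0.176 to 1.17%), Igfbp5 (0.266 to 1.17%) and Igfbp6 (0.0185 to 0.237%) were small parts of the family in all 7 livers. Per kb of exon, which corrects for the length of the mRNAs, the mean share of Igfbp2 was 7.48 ± 1.48% (SD, n = 3) in WT and 24.8 ± 3.45% (SD, n = 4) in TET1 KO livers. The shares have no test of their own, since they repeat the levels above.

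**Figure D5:**
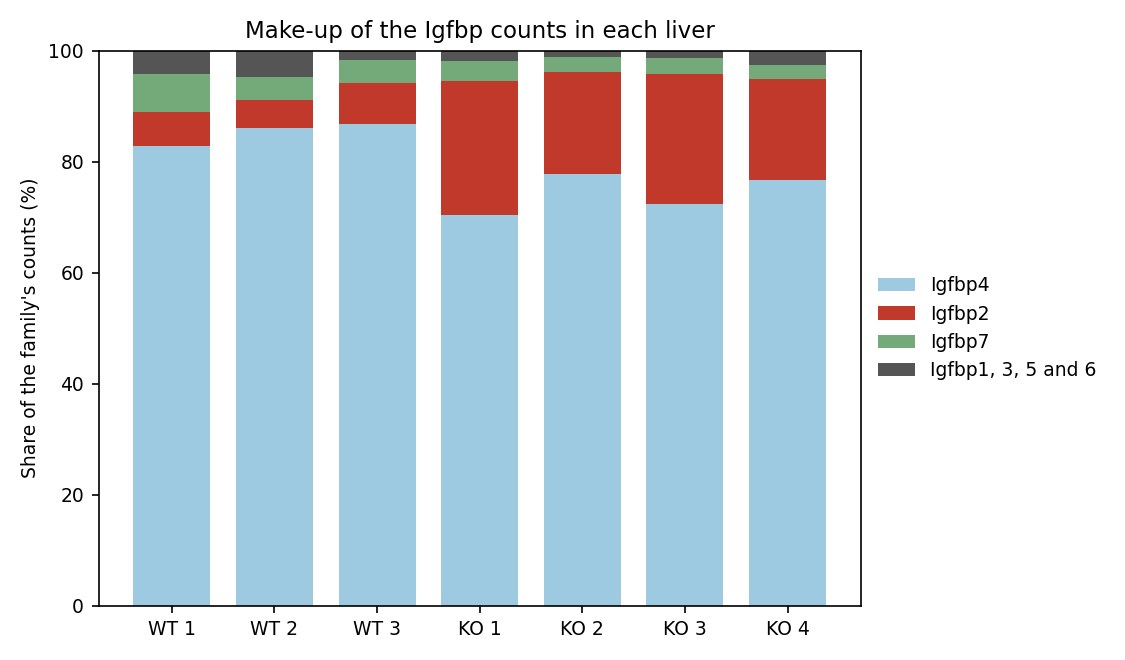
Share of the 7 members' counts in percent (vertical axis) in each of 3 WT and 4 TET1 KO (KO) livers, stacked as Igfbp4, Igfbp2, Igfbp7 and the other 4 members together. The Igfbp2 part is 5.01 to 7.49% in WT and 18.2 to 24.1% in TET1 KO livers, and the Igfbp4 part is the largest in every liver.

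The summed level of the family was 1412, 1366 and 1488 CPM in WT and 1889, 1943, 2040.3 and 2177 CPM in TET1 KO livers. With Igfbp2 left out, the sums were 1325, 1297 and 1376 CPM in WT and 1433, 1586, 1564 and 1781 CPM in TET1 KO livers. The TET1 KO sums were thus above the WT sums with and without Igfbp2, and Igfbp4 was the largest part of every sum. Without Igfbp4, the family summed to 210.2 ± 28.7 CPM (SD, n = 3) in WT and 515 ± 60.4 CPM (SD, n = 4) in TET1 KO livers. Each of these sums still holds Igfbp2 or Igfbp4, so that they do not show a rise across the family. From WT to TET1 KO the mean CPM was lower for Igfbp7 (71.4 to 58.5), Igfbp3 (27.3 to 12.7) and Igfbp1 (9.76 to 7.16). It was higher for Igfbp5 (11.4 to 13.7) and Igfbp6 (1.58 to 2.07). Of all members only Igfbp2 passed the test.

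Around the binding proteins, 46 genes of the IGF system and its inputs were looked up in 8 lists, and 35 could be tested. Of these 1 (2.86%) was called, near the 2.02% of all tested genes, and the groups did not overlap for 5 (14.3%), beside 22.5% of all genes. The median log2 fold change over the 35 was 0.10. The called gene was Irs2, the insulin receptor substrate that carries much of the insulin signal in liver, which stood at 6.60, 6.18 and 4.64 CPM in WT and at 13.5, 8.31, 10.8 and 13.8 CPM in TET1 KO livers. Every TET1 KO liver was above every WT liver, and Irs2 rose by 1.00 on the log2 scale (SE 0.22, edgeR adjusted p = 0.0437). The call was lost when any WT liver, TET1 KO replicate 1 or TET1 KO replicate 3 was left out, and with scaling to library size alone, with adjusted p-values of 0.00308 to 0.176 over all settings and log2 fold changes of 0.85 to 1.12.

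Of the ligands, Igf1 stood at 510.1, 465 and 595 CPM in WT and at 549.5, 641, 537 and 474 CPM in TET1 KO livers, and the groups overlapped (log2 fold change 0.07, SE 0.16, edgeR adjusted p = 0.795). Igf2 had 4 to 8 counts in every library, and its level was too low to be tested. Igfals, the gene of the acid-labile subunit, stood at 82.9, 79.0 and 107 CPM in WT and at 103, 115, 95.8 and 93.2 CPM in TET1 KO livers, and its log2 fold change was 0.19 (edgeR adjusted p = 0.421). Neither component of the serum complex that Igfbp3 joins was thus called.

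Of the receptors, Igf1r stood at 5.02, 3.27 and 4.03 CPM in WT and at 9.64, 9.30, 7.42 and 6.22 CPM in TET1 KO livers, without overlap. Its log2 fold change was 0.98 (SE 0.22, edgeR adjusted p = 0.0502), just short of the threshold, and it ran from 0.83 to 1.14 with adjusted p-values of 0.00602 to 0.240 under the other settings. Igf2r, the receptor that takes up IGF2 for degradation, stood at 26.6, 35.0 and 30.2 CPM in WT and at 20.7, 21.7, 22.6 and 24.5 CPM in TET1 KO livers, again without overlap and without a call (-0.45, SE 0.14, adjusted p = 0.0873). Under the other settings it ran from -0.55 to -0.35 with adjusted p-values of 0.0477 to 0.331, and it passed in DESeq2 alone (-0.48, adjusted p = 0.0477). Insr, the insulin receptor, had a log2 fold change of 0.13 (adjusted p = 0.522) with overlapping groups, and Insrr had at most 3 counts in any library.

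Of the inputs, Ghr, the growth hormone receptor, had a log2 fold change of -0.20 (edgeR adjusted p = 0.436), and 0 of 6 genes of growth hormone signalling were called. Foxo1 stood at 28.0 to 46.5 CPM in WT and at 31.0 to 52.2 CPM in TET1 KO livers (0.13, adjusted p = 0.717), and Irs2 was the 1 gene called of 9 on the insulin and FOXO1 list. None of the 3 leptin signalling genes and none of 5 genes of the ATF4 and hypoxia responses was called. Of 7 proteases and protease inhibitors of the binding proteins only Htra1 and Stc2 could be tested and neither was called. The pappalysin genes Pappa and Pappa2 had at most 4 counts and 1 count in any library, and Adam28 had 0. Of the proteins that share the amino-terminal domain of the IGFBPs, 5 of 9 could be tested and 0 were called, with signs in both directions. The log2 fold changes were -1.36 for Esm1 (edgeR adjusted p = 0.128), -0.81 for Ccn2 (0.0848), -0.32 for Ccn4 (0.662), 0.18 for Ccn1 (0.557) and 0.67 for Kazald1 (0.169).

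The nearest tested genes on the chromosome were looked at last. Around Igfbp1 and Igfbp3 these were Tbrg4 (0.10), 572 kb from Igfbp1, and Tns3 (0.11), 1216 kb from Igfbp3. Beside Igfbp4 stood Top2a (-0.71) at 15.8 kb and Smarce1 (0.27) at 156 kb. Beside Igfbp6 stood Spryd3 (-0.59) at 7.97 kb and Soat2 (0.36), the last only 902 bases beyond the end of Igfbp6. Beyond Igfbp7 the next tested gene was Gm2199, 3493 kb away. No such neighbour outside the family was called, with edgeR adjusted p-values from 0.0513 for Rpl37a to 0.939 for Gm2199.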

How the data were processed

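Liver RNA was extracted and sequenced from 3 WT and 4 TET1 KO mice with a strand-specific library kit. The labels name poly(A) selection and, as an alternative, rRNA depletion, without saying which was used. The submitters' processing notes name Trimmomatic 0.36, GSNAP, featureCounts 1.5.3 and build GRCm38. The authors deposited raw read counts per Ensembl gene for each mouse, not normalized, and the setting for strand is not given in the sources used here. The libraries were joined by Ensembl identifier after 5 repeated entries were left out, since 26 symbols of TET1 KO replicate 1 had been turned into dates.

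The analysis used edgeR 4.0.16 in R 4.3.3. Genes kept by filterByExpr (14754) were scaled by TMM and compared between genotypes by the quasi-likelihood test (glmQLFit and glmQLFTest, legacy = FALSE, robust = FALSE, no covariates), with Benjamini-Hochberg adjustment over all of them and a call at an adjusted p under 0.05. log2 CPM used a prior count of 2, and standard errors and 95% intervals were derived from each gene's F value and fold change. The script was tested on simulated counts with known changes. Power for the smaller of these changes was limited by the number of livers, so that a gene that did not pass may still differ. Library sizes of 15005277 to 22746138 counts make 1 CPM 15.0 to 22.7 counts before normalization. Low genes such as Igfbp6, with 5 to 101 counts per liver, thus rest on few counts. The part of depth in their spread was not tested. Exon lengths, used for CPM per kb only, came from GENCODE M1, an annotation of the older build NCBIM37, by Ensembl identifier and were found for 13469 tested genes (91.3%). Positions and start regions came from RefSeq tables for GRCm38.p6 and were matched by identifier or symbol. Protein sequences were not used here.

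Named are all members, each called gene of the pathway lists with Igf1, Igfals, Igf1r, Igf2r, Insr, Ghr and Foxo1, the 3 genes closest in pattern to each member, and the nearest tested gene on each side of it. G6pc, Pck1, Ccn1, Ccn2, Ccn4, Esm1, Kazald1, Htra1, Stc2, Ppargc1a, Rgs5, the endothelial markers and the other list genes with values were named after their values had been seen. Members, lists and tests were chosen with earlier results of these data known. DESeq2 1.42.0, RLE size factors, library size only, a minimum of 10 counts in every library or no filter, robust dispersions, a block for the replicate number, and each liver left out were the alternatives. The labels carry no batch or date. None of the 9 pairs of libraries within a genotype agreed within sampling noise, with a chi-square per degree of freedom of at least 27.4. Figures were drawn with matplotlib.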

Additional observations from a re-analysis of the deposited data

Results flagged for a closer look

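In the 4 TET1 KO livers, 42 genes (the 7 members and the 35 tested pathway genes) were examined for a liver far from the others, by the gap to its nearest neighbour divided by the range of the group, against Dixon's critical value at the 95% level. Chance alone would pick about 1 gene in 20, or 2.1 of 42, and 4 were picked, none of them a member of the family. Cish, a growth hormone-induced inhibitor of cytokine signalling, had a gap of 0.968 of the range, with 41.8 CPM in TET1 KO replicate 1 and 1.64 to 2.92 CPM in the others. Socs3, the inhibitor induced by leptin and cytokines, had a gap of 0.860 in the same liver, with 37.1 CPM beside 7.72 to 11.8 CPM. TET1 KO replicate 1 also had the lowest Igfbp1 of the 7 livers, at 3.32 CPM, and its Igfbp2, at 455 CPM, lay between those of TET1 KO replicates 3 and 4. Ccn1, the gene of a matricellular protein with an IGFBP-type domain, had a gap of 0.899, with 17.3 CPM in TET1 KO replicate 2 beside 11.1 to 11.8 CPM. Kazald1, which encodes a further protein with that domain, had a gap of 0.852, with 1.43 CPM in TET1 KO replicate 3 beside 1.97 to 2.07 CPM.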

How the results depend on the processing

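The call of Igfbp2 and the signs of Igfbp2, Igfbp3, Igfbp4 and Igfbp7 held under all 14 settings tried. Igfbp3 passed under DESeq2 (-1.14), with no filter on low counts (-1.14) and without WT replicate 3, and with a liver left out its log2 fold change ran from -1.47 to -0.78. The members called lower were then 1 in place of 0 under DESeq2 and with no filter, and 0 to 1 with a liver left out. Changes of sign with a liver left out came for Igfbp1 without WT replicate 2 (0.12, range -0.92 to 0.12), for Igfbp5 (-0.16 to 0.59) and Igfbp6 (-0.45 to 1.45) without WT replicate 3 or TET1 KO replicate 4, for Igf1 without TET1 KO replicate 2 (-0.022) or WT replicate 2 (-0.012), with up to 0.15 without another liver, and for Foxo1 without WT replicate 1 (-0.033) or TET1 KO replicate 1 (-0.023), with up to 0.35. Igf1 also changed sign with scaling to library size only (-0.021). The pathway genes called higher were 0 with library size only, 2 under DESeq2 and 0 to 2 with a liver left out, and those called lower were 2 under DESeq2, Igf2r among them. Igfbp6 had too few counts for the filter of at least 10 in every library and has no value there. The cause of these shifts was not tested.

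Deviations from the group means correlated at 0.21, -0.12 and -0.10 between same-numbered libraries. So few livers cannot settle whether same-numbered livers were paired, and the main fit used no block. With the replicate number as a block, 1327 genes were called in place of 298, 2 pathway genes were called higher, and Igfbp5 (-0.14) and Igfbp6 (-0.10) changed sign. Over all genes the number called was 1332 under DESeq2, 592 with no filter, 419 with library size only, 891 without TET1 KO replicate 4 and as low as 37 without WT replicate 2.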
